A study of Mus musculus with 6 samples.

Results

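Interferon-stimulated genes are the transcripts that cells raise when type I interferon (IFN-α and IFN-β) or type II interferon (IFN-γ) binds its receptor. A set of 40 such genes was followed here in Treg, the CD4 regulatory T cells that express Foxp3 and hold immune responses in check. The genes were listed by symbol, and all 40 of 40 symbols matched a row among the 37991 genes counted. RNA was measured by RNA sequencing of YFP-positive Treg sorted from mouse spleen, in 3 libraries labelled KAP1 deficient and 3 labelled wild type, KAP1 sufficient. KAP1 is the product of Trim28, and silences the DNA sites to which KRAB zinc finger proteins recruit it. The strain is given as C57BL/6, except for deficient replicates 2 and 3, which are labelled C57BL/7 and C57BL/8. The labels state no age, deleting Cre or source of the YFP, and do not say that each library is another animal. The p-values below therefore reflect the spread between these libraries alone, and that spread may be technical.

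Type I interferon signals through IFNAR1 and IFNAR2 to ISGF3, a complex that includes STAT2 and IRF9 and binds the interferon-stimulated response element (ISRE). Type II interferon signals through IFNGR1 and IFNGR2, and genes it raises often carry a gamma-activated site (GAS). Products of the first kind of gene act mainly against viral RNA and its translation, such as the IFIT, OAS and Mx proteins. The immunity-related GTPases (IRG) and guanylate-binding proteins (GBP) are best known as IFN-γ-induced GTPases that act on vacuoles holding intracellular pathogens, although type I interferon also raises many of them. The 40 members were therefore read as 7 IRG and GBP genes and 33 others, which include the Mx GTPase genes, whose induction is typical of type I interferon.

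Before any comparison, Trim28 was set against the labels. It stood at 23.0, 18.6 and 231 CPM (counts scaled to the library total) in the libraries labelled deficient replicates 1, 2 and 3, against 244, 244 and 21.2 CPM in those labelled sufficient replicates 1, 2 and 3. The library labelled deficient replicate 3 and the library labelled sufficient replicate 3 thus went against their labels. Members were compared in 3 ways: over the 6 libraries as labelled, over the 4 libraries whose Trim28 level goes with the label (replicates 1 and 2 of each group), and over all 6 libraries by measured Trim28 level. Low Trim28 here means deficient replicates 1 and 2 and the library labelled sufficient replicate 3. High Trim28 means the library labelled deficient replicate 3 and sufficient replicates 1 and 2. Values of each set are given in those orders throughout. The Trim28 sets were made from a measured gene and are not the study's groups, so Trim28 itself was not tested between them, and they share 4 libraries with the second comparison. In a chi-square comparison of counts over genes, the library labelled deficient replicate 3 stood apart from the other high-Trim28 libraries, at 7.66 and 8.13 per degree of freedom, where the other pairs within a Trim28 set ran from 2.52 to 3.24. Results without it are therefore also given for some members. By Trim28 level 15 members were called without it (22.2% of all genes were), and not all of the added calls are named below. Libraries held 9954344 to 10994745 counts, so that 3 counts correspond to 0.273 to 0.301 CPM.

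Treg genes were abundant, with 5934 to 7546 Foxp3 counts and 8380 to 10055 Cd4 counts per library. By Trim28 level none of the 5 Treg genes was called by edgeR. Over the 4 libraries Foxp3 (-0.25) and Cd4 (-0.15) were lower and Ikzf2 (0.19) was higher in deficient libraries on the log2 scale. Defining genes of other cells stood at 0 counts in all 6 libraries for monocytes (Cd14), dendritic cells (Itgax, Clec9a), plasmacytoid dendritic cells (Siglech) and NK cells (Ncr1). The summed level of 5 B cell genes was 530 to 567 CPM in the low-Trim28 libraries and 587 to 673 CPM in the high-Trim28 libraries, and Igkc was lower with low Trim28 (log2 fold change -2.24). Of the NK genes, Klrb1c was higher (1.97) and Nkg7 lower (-0.58) with low Trim28, and of the dendritic cell genes Zbtb46 was higher (edgeR adjusted p = 0.0366). Summed levels of 5 dendritic cell genes were 2.61 to 4.37 CPM with low Trim28 and 1.18 to 2.57 CPM with high Trim28, and those of 5 myeloid genes 1.75 to 3.17 CPM with low and 1.67 to 1.91 CPM with high Trim28. Those of 3 plasmacytoid genes were 16.5 to 19.7 CPM with low and 18.1 to 22.7 CPM with high Trim28, and those of 4 NK genes 23.3 to 26.7 CPM with low and 23.9 to 27.9 CPM with high Trim28. The part of these cells in the values below was not tested. In sorted bulk RNA, fewer cells carrying a transcript and less RNA per cell cannot be told apart.

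Promoter sequence was searched for the 2 kinds of element. RefSeq windows on GRCm38.p6, from 250 bases before to 50 after an annotated start, were found for 32 of the 40 members, all but Usp18, Oas2, Mx1, Mx2, Rtp4, Ifi27l2a, Parp9 and Parp14. The ISRE letters GAAANNGAAA occurred on either strand in the windows of 17 of the 32, in 11 of 25 members outside the IRG and GBP families and in 6 of 7 within them, against 3.99% of 27025 genes with a window. The GAS letters TTCNNNGAA occurred in 9 of the 32, in 6 of 25 and 3 of 7, against 9.55% of genes. The 8 stretches of 100 bases below are chosen examples from IFIT, OAS, GBP and IRG genes and Rsad2. All hold an ISRE match, but the windows of Ifit1, Ifit3, Rsad2 and Oas3 hold no GAS match. Gbp7, Igtp and Irgm2 are the 3 of 7 IRG and GBP genes with a GAS match. Other members also hold matches, among them Isg15, Lgals9, Irgm1 and Gbp2, each with the ISRE letters only. They are written 5′ to 3′ along the gene, with ISRE and GAS matches in capitals. Matches that overlap each other, as at the end of the Oas1a stretch, run together.
Ifit1, chr19:34640734-34640833, plus strand: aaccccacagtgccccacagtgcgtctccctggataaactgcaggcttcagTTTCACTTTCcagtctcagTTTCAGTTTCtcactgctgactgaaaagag
Ifit3, chr19:34583337-34583436, plus strand: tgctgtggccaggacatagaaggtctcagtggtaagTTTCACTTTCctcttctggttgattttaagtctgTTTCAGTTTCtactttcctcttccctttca
Rsad2, chr12:26456543-26456642, minus strand: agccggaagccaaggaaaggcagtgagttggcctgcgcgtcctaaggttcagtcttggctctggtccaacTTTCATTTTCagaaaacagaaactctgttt
Oas1a, chr5:120907526-120907625, minus strand: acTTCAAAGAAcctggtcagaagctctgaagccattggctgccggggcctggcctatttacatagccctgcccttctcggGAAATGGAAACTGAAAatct
Oas3, chr5:120777705-120777804, minus strand: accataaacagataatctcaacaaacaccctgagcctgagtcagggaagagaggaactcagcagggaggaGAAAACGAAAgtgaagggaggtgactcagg
Gbp7, chr3:142530213-142530312, plus strand: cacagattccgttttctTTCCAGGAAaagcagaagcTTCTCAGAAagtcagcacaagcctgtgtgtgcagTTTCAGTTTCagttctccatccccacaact
Igtp, chr11:58199452-58199551, plus strand: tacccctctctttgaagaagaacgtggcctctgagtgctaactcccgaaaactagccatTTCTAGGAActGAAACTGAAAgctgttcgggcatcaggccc
Irgm2, chr11:58214843-58214942, plus strand: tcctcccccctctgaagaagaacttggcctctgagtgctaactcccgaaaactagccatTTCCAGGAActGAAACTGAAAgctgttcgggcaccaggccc

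The first 3 of these windows, of Ifit1, Ifit3 and Rsad2, hold the ISRE on the opposite strand, and those of Oas3 and the IRG genes Igtp and Irgm2 on the gene's own strand. In the Igtp window a GAS match began 45 bases and the ISRE match 34 bases before the start, and in the Irgm2 window they began 75 and 64 bases before it. The Ifi47 window held neither set of letters. A match is a description of the sequence and does not show that a factor binds there.

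Members were expressed over a wide range in Treg. Per kilobase of exon and averaged over the 6 libraries, the highest levels were those of Igtp at 188 CPM per kb, Ifi47 at 131, the mitochondrial protein gene Ifi27l2a at 110 and the antiviral growth regulator gene Samd9l at 106 CPM per kb. The level of Ifi27l2a is uncertain, with 475 to 580 counts per library here but a mean level of 1830 in the authors' deposited table. For Igtp these were 3635 to 4393 counts and 3830. The cause of the Ifi27l2a difference was not tested. Ifi44 was lowest, at 0.192 CPM per kb and 8 to 18 counts per library. The summed level of the 33 members outside the IRG and GBP families was 3459.8, 3348.1 and 3237.4 CPM in the low-Trim28 libraries, against 3243.5, 3324.5 and 3361.6 CPM in the high-Trim28 libraries, so the ranges overlap. The summed level of the 7 IRG and GBP genes was 1741.3, 1765.9 and 1895.1 CPM with low Trim28, against 1671.7, 1671.9 and 1560.7 CPM with high Trim28, without overlap.

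Under the labels no member was called: 0 of 40 passed an edgeR adjusted p of 0.05, where 0.0165% of 12158 tested genes did. DESeq2 and limma-voom also called 0 members. Each labelled group mixes libraries of low and high Trim28, so the lack of calls does not show that members were unchanged. At an unadjusted p under 0.05 there was 1 member, Trim30a, where 7.76% of all genes stood. The median log2 fold change of the 40 members, deficient minus sufficient, was -0.02, with 16 positive and 24 negative. Trim30a, whose product restrains Toll-like receptor signalling in mice, had 261, 233 and 227 CPM in deficient libraries, against 195, 212 and 207 CPM in sufficient libraries, a log2 fold change of 0.23 ± 0.07 (SE, edgeR adjusted p = 0.632). Its groups did not overlap, which held for only 1 other member, Parp14, and for 12.8% of all genes. Without the library labelled sufficient replicate 3, 4 members were called, where 6.54% of all genes were, and without both libraries that Trim28 contradicts, 13 members and 17.4% of all genes were.

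By Trim28 level, 7 of the 40 members changed (17.5%), 3 higher and 4 lower with low Trim28, where 8.23% of all tested genes changed (4.61% higher and 3.61% lower). Higher were Usp18, Lgals9 and Ifi47, and lower were Ifit1, Ifit3, Oasl1 and Mx2. Under upper-quartile factors 2 were higher and 5 lower. The median log2 fold change of the 40 was -0.05, where that of all tested genes was 0.0. In the 4 libraries whose Trim28 level goes with the label, 13 of 40 were called (32.5%), 7 of them higher and 6 lower in deficient libraries, where 17.4% of 12183 genes were (9.96% higher and 7.39% lower). Under upper-quartile factors 6 were higher and 8 lower. Each of the 7 calls by Trim28 level other than Mx2 was also made there. Added were Oas1a, Samd9l, Trim30a and Gbp7, which were higher, and Oas2, Oasl2 and Rsad2, which were lower.

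**Figure D1:**
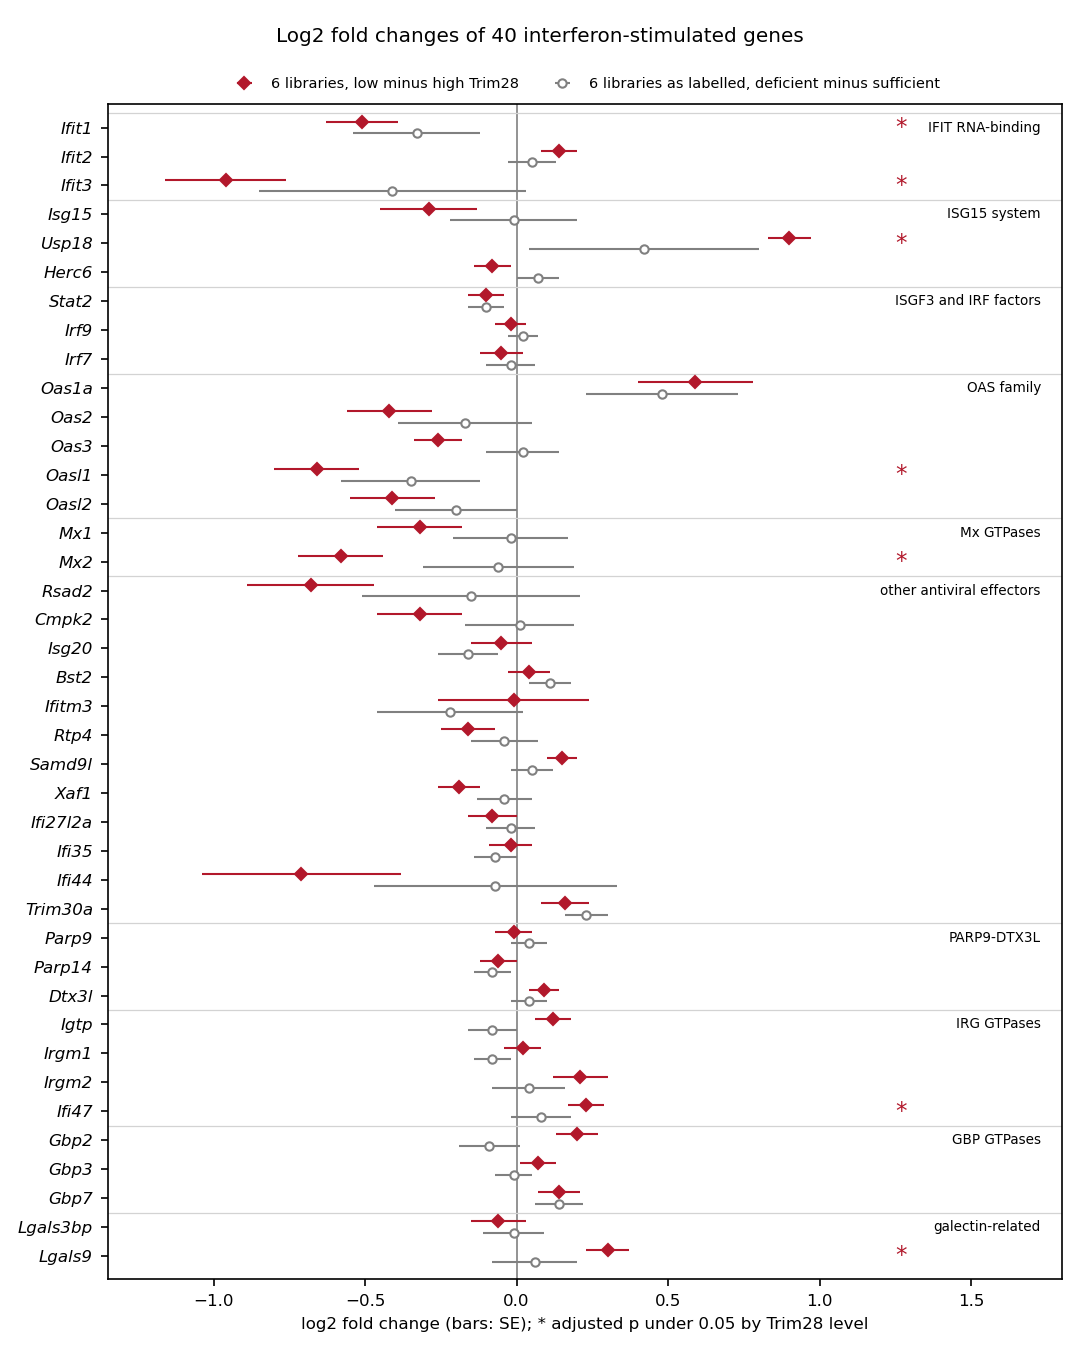
Log2 fold change (x axis, bars are SE) of each of the 40 members, grouped by family, over the 6 libraries by Trim28 level (filled diamonds, low minus high) and as labelled (open circles, deficient minus sufficient). Stars mark the 7 members with an adjusted p under 0.05 by Trim28 level, and values by Trim28 level run from -0.96 for Ifit3 to 0.90 for Usp18.

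The plot of fold changes shows members on both sides of 0. Among the 33 members outside the IRG and GBP families, 25 had a negative and 8 a positive log2 fold change by Trim28 level, with a median of -0.08. Of these 33, 2 were called higher and 4 lower. CPM ranges of the low- and high-Trim28 libraries did not overlap for 18 of the 40 members, 8 higher and 10 lower with low Trim28, where this held for 26.4% of all genes (11.9% higher and 14.5% lower).

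The IFIT genes encode proteins that bind viral RNA and block its translation. Ifit1 (ENSMUSG00000034459, chromosome 19, 34640871 to 34650009) had 36.6, 34.6 and 31.3 CPM in the low-Trim28 libraries, against 39.2, 53.3 and 54.3 CPM in the high-Trim28 libraries. Each low-Trim28 library was below each high one, and the library labelled deficient replicate 3 was the lowest of the high ones. On the log2 scale the difference was -0.51 ± 0.12 (SE, edgeR adjusted p = 0.0247) by Trim28 level and -0.59 ± 0.08 (adjusted p = 9.57e-05) in the 4 libraries. By Trim28 level the Ifit1 call was lost on removal of each library but the library labelled deficient replicate 3, at -0.426 to -0.563, and with the label as a covariate (-0.445).

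Ifit3 (ENSMUSG00000074896, chromosome 19, 34583531 to 34588731), whose product partners IFIT1 in human cells, had 12.4, 9.44 and 7.09 CPM with low Trim28, against 14.9, 19.8 and 21.9 CPM with high Trim28. The groups were again separate, and the library labelled sufficient replicate 3 was the lowest of all 6. Ifit3 had a log2 fold change of -0.96 ± 0.20 (SE, edgeR adjusted p = 0.0140) and lost its call without deficient replicate 2 (-0.937), without sufficient replicate 1 (-0.914) and with the label as a covariate (-0.935). Reads may be shared with its near-identical neighbour Ifit3b, which was also lower with low Trim28, at -1.03 ± 0.24. Ifit2 did not follow them. It had 84.7, 80.1 and 85.0 CPM with low Trim28, against 78.0, 71.6 and 78.0 CPM with high Trim28, a log2 fold change of 0.14 ± 0.06 that was not called (edgeR adjusted p = 0.168).

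The ISG15 system attaches the ubiquitin-like protein ISG15 to others, with HERC6 as a ligase in mice and USP18 as the protease that removes it. USP18 also binds IFNAR2 and damps type I signalling. Usp18 (ENSMUSG00000030107, chromosome 6, 121245906 to 121270917) had 90.3, 84.5 and 75.8 CPM with low Trim28, against 46.0, 44.2 and 45.2 CPM with high Trim28. The 3 high-Trim28 libraries lay close together whatever their label, and each low one was well above them. It averaged 83.5 ± 7.27 CPM with low Trim28 and 45.2 ± 0.890 CPM with high Trim28 (SD, n = 3 each), a 1.86-fold difference and a log2 fold change of 0.90 ± 0.07 (SE, edgeR adjusted p = 1.18e-06). In the 4 libraries the value was 0.97 ± 0.07 (adjusted p = 3.58e-07). The call held in all 15 alternatives by Trim28 level and all 12 in the 4 libraries, with adjusted p-values of 1.08e-31 to 2.32e-05 by Trim28 level.

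Under the labels Usp18 had 73.6 ± 24.1 CPM in deficient and 55.1 ± 18.0 CPM in sufficient libraries (SD, n = 3 each), with overlapping ranges, and its log2 fold change of 0.42 ± 0.38 was not called (SE, edgeR adjusted p = 0.790). Within each label the ratio of low- over high-Trim28 libraries was 1.90 among those labelled deficient and 1.70 among those labelled sufficient. Isg15 had 22.1, 20.7 and 15.0 CPM with low Trim28, against 21.6, 21.0 and 28.8 CPM with high Trim28, with overlap. Herc6 had 94.2, 86.7 and 81.9 CPM with low Trim28, against 96.9, 90.8 and 92.2 CPM with high Trim28. Neither Isg15 nor Herc6 was called in any of the 3 comparisons.

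**Figure D2:**
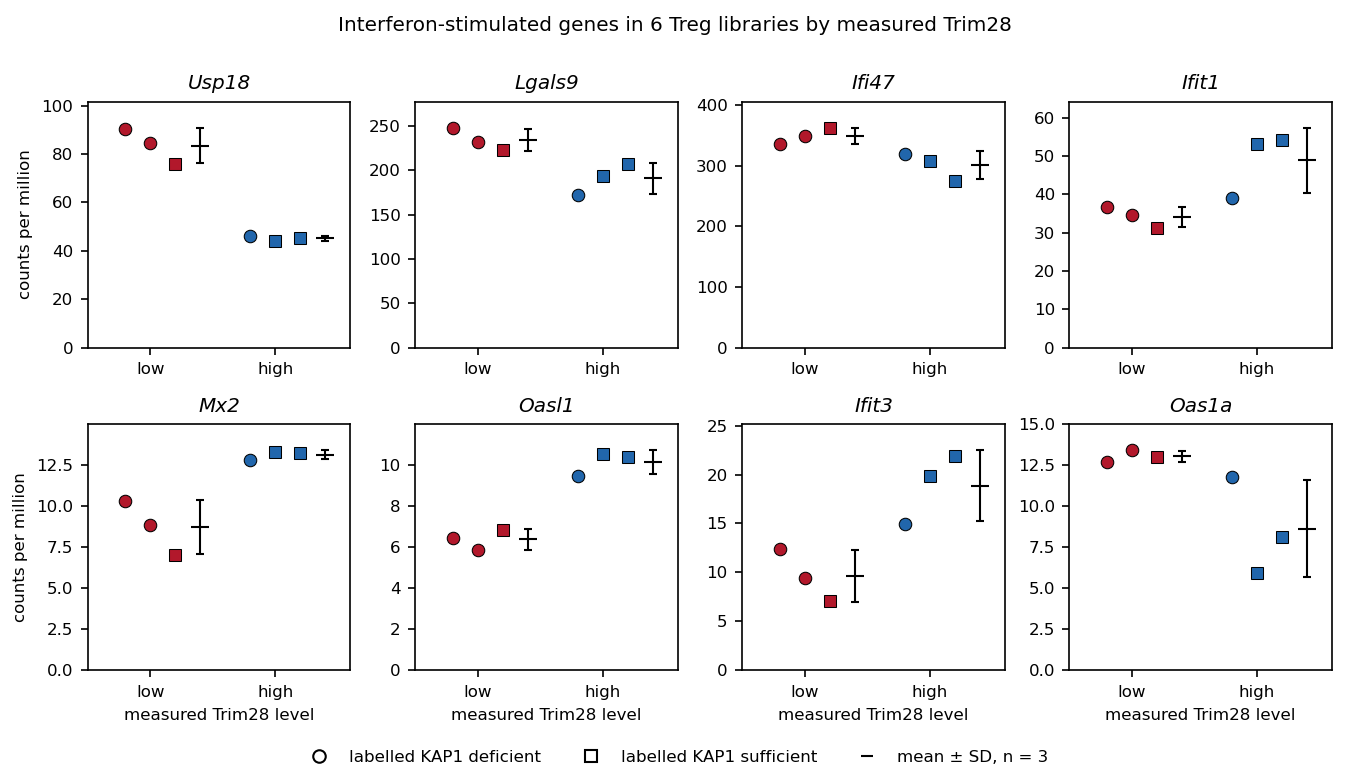
CPM (y axes, from 0) in each library of the 7 members called by Trim28 level and of Oas1a, for the 3 libraries with low Trim28 (left, red) and the 3 with high Trim28 (right, blue). Circles are libraries labelled KAP1 deficient, squares those labelled KAP1 sufficient, and bars are mean ± SD. Usp18 lies at 75.8 to 90.3 CPM with low and 44.2 to 46.0 CPM with high Trim28.

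Of the members for transcription factors of the pathway, Stat2, Irf9 and Irf7, edgeR, DESeq2 and limma-voom called none by Trim28 level, and 0 stood at an unadjusted p under 0.05. Stat2 had 157, 161 and 167 CPM with low Trim28, against 169, 187 and 168 CPM with high Trim28, a log2 fold change of -0.10 ± 0.06 (SE, edgeR adjusted p = 0.346). The CPM ranges were separated by a gap smaller than the spread within either set. Irf9 had 234, 244 and 228 CPM with low Trim28, against 241, 239 and 243 CPM with high Trim28. Irf7, the factor that amplifies type I interferon production, had 115, 107 and 98.3 CPM with low Trim28, against 104, 112 and 119 CPM with high Trim28. None of the 3 was called by edgeR in the 3 comparisons. Stat2, at -0.153 in the 4 libraries, was called lower there with upper-quartile factors (-0.184), with no filter on low counts (-0.155) and without sufficient replicate 2 (-0.236), in adjusted p-values that ranged from 0.0166 to 0.526 over its 12 alternatives.

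Of the 5 OAS family genes, 1 was called by Trim28 level, Oasl1, which fell, and in the 4 libraries 1 rose and 3 fell by edgeR, while DESeq2 called none of those 3 lower there. OAS enzymes sense double-stranded RNA and make the oligoadenylates that activate RNase L, whereas the OAS-like protein OASL1 lacks that activity and represses Irf7 translation in mice. Oasl1 (ENSMUSG00000041827, chromosome 5, 114923240 to 114937915) had 6.45, 5.83 and 6.80 CPM with low Trim28, against 9.46, 10.5 and 10.4 CPM with high Trim28. The separation went with Trim28 in all 6 libraries and within both labels, with low over high ratios of 0.649 among deficient and 0.650 among sufficient libraries. On the log2 scale the difference was -0.66 ± 0.14 (SE, edgeR adjusted p = 0.00869), and the call was lost only without deficient replicate 2 among the 15 alternatives (-0.595). Its value in the 4 libraries was -0.761, and that call was lost with DESeq2 (-0.764) and without deficient replicate 2 (-0.686).

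Oas1a (ENSMUSG00000052776, chromosome 5, 120896256 to 120907521), an active synthetase gene, was the one that rose in the 4 libraries. It had 12.7, 13.4 and 13.0 CPM with low Trim28, against 11.8, 5.94 and 8.15 CPM with high Trim28. The library labelled deficient replicate 3 stood next to the low-Trim28 libraries rather than beside sufficient replicates 1 and 2. Oas1a had a log2 fold change of 0.89 ± 0.18 in the 4 libraries (SE, edgeR adjusted p = 0.00271), was not called by Trim28 level (0.59 ± 0.19, adjusted p = 0.0745), and was called there without the library labelled deficient replicate 3 (0.889).

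Oas2 had 25.7, 21.7 and 18.4 CPM with low Trim28, against 25.4, 28.1 and 35.4 CPM with high Trim28, with overlap, and Oasl2 had 18.2, 14.6 and 12.9 CPM with low Trim28, against 16.9, 22.3 and 21.9 CPM with high Trim28. Both were called lower in the 4 libraries (-0.42 ± 0.12 and -0.43 ± 0.13, SE) and neither by Trim28 level. Without the library labelled deficient replicate 3 both were called by Trim28 level, at -0.528 for Oas2 and -0.534 for Oasl2. In the 4 libraries both lost the call with DESeq2 and without deficient replicate 2 (-0.295 and -0.273) or sufficient replicate 2 (-0.247 and -0.445), and Oasl2 also without sufficient replicate 1 (-0.410). Oas3 had 48.3, 45.9 and 41.9 CPM with low Trim28, against 57.1, 50.6 and 56.4 CPM with high Trim28, and was not called in the comparisons (-0.26 ± 0.08, edgeR adjusted p = 0.0533 by Trim28 level). By Trim28 level Oas3 was called lower in 4 of 15 alternatives, with values of -0.308 to -0.204 over all 15.

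The Mx genes encode dynamin-like GTPases that trap viral nucleocapsids, and unlike the IRG and GBP genes they are raised mainly by type I interferon. Mx2 (ENSMUSG00000023341, chromosome 16, 97535308 to 97560900) had 10.3, 8.84 and 6.99 CPM with low Trim28, against 12.8, 13.3 and 13.2 CPM with high Trim28. The high-Trim28 libraries lay together and the low ones were spread below them. Mx2 had a log2 difference of -0.58 ± 0.14 (SE, edgeR adjusted p = 0.0223), and of -0.46 ± 0.15 in the 4 libraries, which was not called (adjusted p = 0.0534). By Trim28 level Mx2 lost its call with DESeq2 (-0.578) and without deficient replicate 2 (-0.582) or any library labelled sufficient (-0.561, -0.572 and -0.437 without replicates 1, 2 and 3). Mx1 had 17.9, 15.7 and 11.6 CPM with low Trim28, against 17.0, 19.6 and 19.9 CPM with high Trim28, and was not called (-0.32 ± 0.14).

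The 12 other antiviral effectors held no call by Trim28 level with edgeR, DESeq2 or limma-voom, with 9 negative and 3 positive values, and at an unadjusted edgeR p under 0.05 there were 1 higher and 3 lower, where 22.3% of all genes stood in either direction. Rsad2, or viperin, makes a chain-terminating nucleotide that blocks viral RNA synthesis, and Cmpk2, a nucleotide kinase gene, lies beside it on chromosome 12. Rsad2 had 9.82, 6.73 and 4.76 CPM with low Trim28, against 9.82, 12.6 and 12.0 CPM with high Trim28. It was called lower in the 4 libraries (-0.56 ± 0.18, SE, edgeR adjusted p = 0.0477), a call lost in 6 of 12 alternatives, at -0.312 without deficient replicate 2, -0.522 without sufficient replicate 1 and -0.603 without sufficient replicate 2. By Trim28 level its value was -0.68 ± 0.21 (adjusted p = 0.0769), and -0.987 without deficient replicate 1, where it was called. Rsad2 was called in 4 of 15 alternatives by Trim28 level. Cmpk2 had 15.9, 17.1 and 11.7 CPM with low Trim28, against 17.6, 20.5 and 18.0 CPM with high Trim28 and was not called.

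Samd9l (chromosome 6, 3372257 to 3399572) had 592, 599 and 616 CPM with low Trim28, against 559, 540 and 537 CPM with high Trim28. Its 3 low-Trim28 libraries stood above its 3 high ones, but the difference was small, at 0.15 ± 0.05 on the log2 scale both by Trim28 level (SE, edgeR adjusted p = 0.0783) and in the 4 libraries (adjusted p = 0.0483). By Trim28 level Samd9l was called in 1 of 15 alternatives. The 4-library value lost its call in 7 of 12 alternatives, including the removal of any single library. Trim30a (chromosome 7, 104409025 to 104465193) was called higher in the 4 libraries (0.29 ± 0.06, adjusted p = 0.00542) and lost that call without deficient replicate 1 (0.199). Ifi44, with 8 to 10 counts with low Trim28 and 11 to 18 with high Trim28, had a log2 fold change of -0.71 ± 0.33 and was not called. Of the remaining effectors, the tetherin gene Bst2, the viral entry inhibitor gene Ifitm3, the exonuclease gene Isg20, Rtp4, Xaf1, Ifi27l2a and Ifi35 were not called in any comparison, with log2 fold changes by Trim28 level of -0.19 for Xaf1 to 0.04 for Bst2.

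PARP9 and DTX3L form a ubiquitin ligase complex, and PARP14 is an ADP-ribosyltransferase. Parp9, Dtx3l and Parp14 were not called in any comparison, with log2 fold changes by Trim28 level of -0.01, 0.09 and -0.06. Exons of Parp9 and Dtx3l share 458 bases on opposite strands, and no source used here gives the strand setting of the counting, so which gene those reads belong to is uncertain. Among the galectin-related genes, Lgals9 (chromosome 11, 78962974 to 78984946), which encodes the galectin that binds the inhibitory receptor TIM-3, had 248, 232 and 223 CPM with low Trim28, against 172, 194 and 207 CPM with high Trim28. The ranges were separate. Lgals9 had a log2 fold change of 0.30 ± 0.07 (SE, edgeR adjusted p = 0.0177) by Trim28 level and 0.26 ± 0.06 in the 4 libraries (adjusted p = 0.00423). By Trim28 level the call was lost without deficient replicate 1 (0.259) or 2 (0.316). Lgals3bp had 111, 118 and 100 CPM with low Trim28, against 107, 107 and 131 CPM with high Trim28 and was not called.

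The 7 IRG and GBP genes had small positive log2 fold changes by Trim28 level, from 0.02 to 0.23 with a median of 0.14, although the lowest, Irgm1, turned to -0.002 with upper-quartile factors and to -0.019 without the library labelled deficient replicate 3. Of the 7, only Ifi47 was called. Under the labels 3 of the 7 values were positive and 4 negative, with a median of -0.01. Ifi47 (ENSMUSG00000078920, chromosome 11, 49076587 to 49096974), an IRG effector gene, had 336, 348 and 362 CPM with low Trim28, against 319, 308 and 275 CPM with high Trim28. Each low-Trim28 library exceeded each high one. Ifi47 had a log2 fold change of 0.23 ± 0.06 (SE, edgeR adjusted p = 0.0377) and 0.24 ± 0.06 in the 4 libraries (adjusted p = 0.0118). By Trim28 level the call was lost with upper-quartile factors (0.200) and on removal of each library but the library labelled deficient replicate 3, at 0.165 to 0.25. In the 4 libraries it was lost without sufficient replicate 2 (0.153).

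The regulatory IRG genes hold their effector relatives inactive on the cell's own membranes. Igtp had 363, 391 and 426 CPM with low Trim28, against 354, 385 and 357 CPM with high Trim28, with overlap. Irgm1 had 165, 162 and 171 CPM with low Trim28, against 156, 174 and 164 CPM with high Trim28. Irgm2 had 195, 195 and 224 CPM with low Trim28, against 192, 190 and 153 CPM with high Trim28, separate by a narrow gap and not called (0.21 ± 0.09). By Trim28 level Irgm2 was called in 1 of 15 alternatives. Igtp and Irgm2 share 162 exon bases on the same strand, so a part of their reads is uncertain. The same limit holds for Gbp7, which shares 637 exon bases with Gm43802, and Ifi47, which shares 111 with Olfr56. Outside these families, Herc6 shares 13.7% of its exon bases with Gm45193 and Rtp4 13.9% with Gm45338 on the same strand. Gbp2 had 197, 204 and 228 CPM with low Trim28, against 170, 189 and 191 CPM with high Trim28, without overlap, at 0.20 ± 0.07 (SE, edgeR adjusted p = 0.0887). Gbp2 was called in 2 of 15 alternatives by Trim28 level. Gbp3 had 106, 113 and 109 CPM with low Trim28, against 102, 109 and 104 CPM with high Trim28. Gbp7 had 378, 351 and 374 CPM with low Trim28, against 378, 316 and 316 CPM with high Trim28. Its high-Trim28 library labelled deficient stood with the low ones, as Oas1a's did. Gbp7 was called in the 4 libraries (0.21 ± 0.05, adjusted p = 0.0125) but not without deficient replicate 1 (0.156), and was not called by Trim28 level (0.14 ± 0.07), where it was called without the library labelled deficient replicate 3 (0.225).

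**Figure D3:**
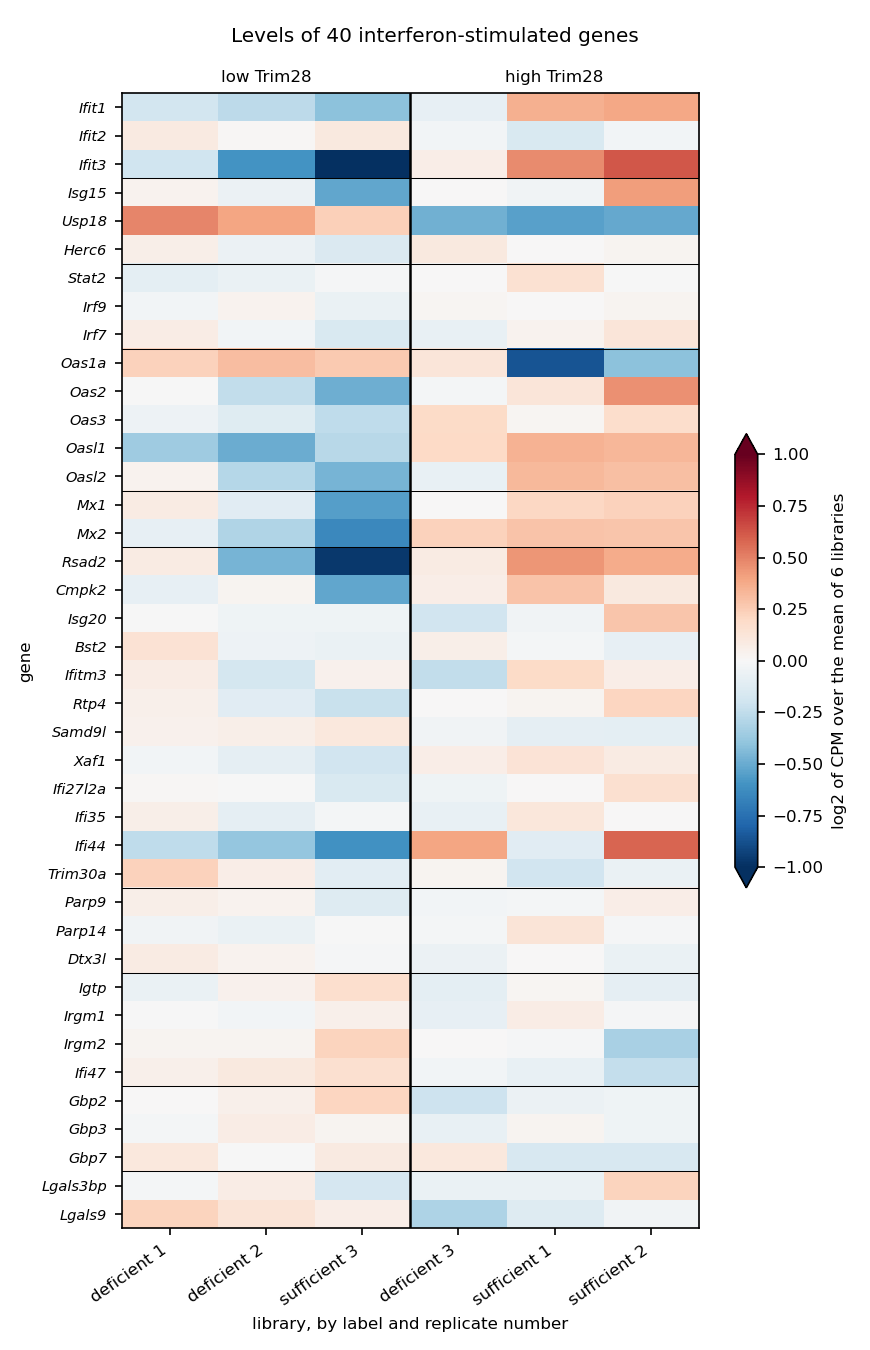
Log2 of CPM over the mean of the 6 libraries (colour) for the 40 members (rows, by family), with the 3 low-Trim28 libraries left and the 3 high-Trim28 libraries right of the line. The library labelled sufficient replicate 3 is the lowest of 6 for 19 of the 33 members outside the IRG and GBP families and the highest for 4 of the 7 within them.

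The heat map of all members shows libraries at opposite ends for the 2 families. The library labelled sufficient replicate 3 was the lowest of the 6 for 57.6% of the 33 members outside the IRG and GBP families, where it was the lowest for 15.5% of all tested genes. It was the highest of the 6 for 57.1% of the 7 IRG and GBP genes, where it was the highest for 15.2% of all genes. Sufficient replicate 2 was the highest for 36.4% of the 33 (21.8% of all genes) and the lowest for 42.9% of the 7 (18.5% of all genes), and the library labelled deficient replicate 3 was the lowest for 57.1% of the 7 (14.4% of all genes). Rsad2, Ifit3, Mx1, Mx2, Oas2, Oasl2 and Isg15 were each lowest in the library labelled sufficient replicate 3. Without that library 4 members were called by Trim28 level, where 4.83% of all genes were, and without deficient replicate 2 only Usp18 was, where 4.57% of all genes were. The difference in direction between the 33 and the 7 genes was not itself tested.

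Each label holds libraries of both Trim28 levels, so low over high ratios could be taken within a label. Libraries labelled deficient gave 2 low against 1 high, and those labelled sufficient 1 low against 2 high, and the ratios are given without a test. With the label as a covariate over all 6 libraries, 7 members were called by Trim28 level, 4 higher and 3 lower, where 7.59% of all genes were. Of the 33 members outside the IRG and GBP families, 19 were lower with low Trim28 within both labels, 7 were higher within both and 7 differed in direction. Of the 7 IRG and GBP genes, 6 were higher within both labels and 1, Gbp7, differed. Over all tested genes 32.1% were lower within both, 26.8% higher within both and 41.1% differed in direction. The low over high ratio of Ifit3 was 0.732 among libraries labelled deficient and 0.340 among those labelled sufficient. That of Mx2 was 0.747 among deficient and 0.529 among sufficient libraries, that of Ifit1 0.908 among deficient and 0.581 among sufficient, and that of Lgals9 1.39 among deficient and 1.11 among sufficient.

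**Figure D4:**
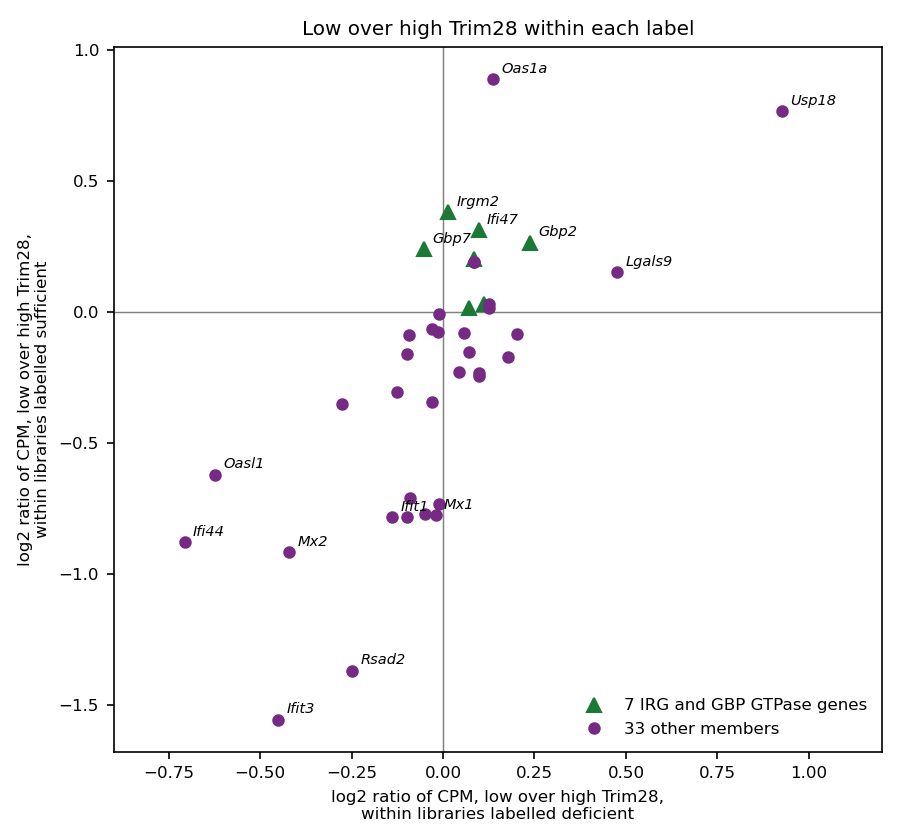
Log2 ratio of CPM, low over high Trim28, within libraries labelled deficient (x axis) and within those labelled sufficient (y axis), for 7 IRG and GBP genes (triangles) and 33 other members (circles). Points in the lower left are lower with low Trim28 within both labels, which holds for 19 of the 33 and for 0 of the 7.

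In that plot Ifit1, Ifit3 and Mx2 lie farther below 0 within the sufficient label than within the deficient one, while Oasl1 and Usp18 had similar ratios in both. Mx1, Oas2 and Oasl2 had ratios of 0.986, 0.934 and 0.967 among libraries labelled deficient, against 0.584, 0.581 and 0.585 among those labelled sufficient.

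The rest of the pathway was read from 7 further lists. Over all tested genes edgeR called 4.61% higher and 3.61% lower with low Trim28. Of 14 listed interferon ligand genes only 8 matched a row, and the others could not be read. Of the 8 matched, all but Ifng stood at 0 counts in all 6 libraries. Ifng, the IFN-γ gene, had 8, 9 and 8 counts with low Trim28, against 15, 29 and 23 counts with high Trim28, with no overlap. Ifng had a log2 fold change of -1.36 ± 0.35 (SE, edgeR adjusted p = 0.0282), a call on few counts that was lost in 8 of 14 alternatives, among them the removal of any single library other than the library labelled deficient replicate 3 (-1.10 to -1.42). Of 5 receptor genes tested, 2 rose with low Trim28. Ifnar2 had 107, 114 and 101 CPM with low Trim28, against 87.6, 89.4 and 88.8 CPM with high Trim28 (0.29 ± 0.06), and Ifngr1 had 260, 296 and 271 CPM with low Trim28, against 240, 225 and 237 CPM with high Trim28 (0.24 ± 0.06). Both calls were lost without deficient replicate 2 (0.243 and 0.195), and that of Ifngr1 also without any library labelled sufficient (0.222 to 0.258). Of 11 signalling and transcription factor genes none was called by Trim28 level with edgeR, DESeq2 or limma-voom, while at an unadjusted edgeR p under 0.05 there was 1, where 22.3% of all genes stood.

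Of 11 genes for inhibitors of signalling, Socs1 rose and Ptpn11 fell with low Trim28, where edgeR called 8.23% of all tested genes. Socs1, whose product blocks JAK kinases below both receptors, had 98.5, 107 and 125 CPM with low Trim28, against 83.4, 89.8 and 78.3 CPM with high Trim28, a log2 fold change of 0.40 ± 0.08 (SE, edgeR adjusted p = 0.00846) that was called in all 15 alternatives. Ptpn11, which encodes the phosphatase SHP2, had 135, 133 and 136 CPM with low Trim28, against 160, 158 and 171 CPM with high Trim28 (-0.26 ± 0.06), and lost its call without deficient replicate 2 (-0.248).

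Among 53 tested genes of a list of other type I induced genes, 9 fell and 2 rose with low Trim28 by edgeR, where DESeq2 called 6 lower and 2 higher and limma-voom 7 lower and 2 higher. Over all tested genes edgeR called 3.61% lower and 4.61% higher. The listed genes with the smallest adjusted p were Ifi213, Ube2l6, Pml, Ifih1, Ifit3b and Tnfsf10. The DNA sensor family gene Ifi213 had 98.7, 87.8 and 89.1 CPM with low Trim28, against 110, 125 and 127 CPM with high Trim28 (-0.38 ± 0.07), a call kept in all 15 alternatives. The nuclear body gene Pml had 127, 117 and 116 CPM with low Trim28, against 139, 157 and 158 CPM with high Trim28 (-0.32 ± 0.07), and the RNA sensor gene Ifih1 had 51.2, 47.8 and 51.3 CPM with low Trim28, against 62.8, 60.7 and 61.8 CPM with high Trim28 (-0.29 ± 0.06). Both lost the call without deficient replicate 2 (-0.300 and -0.255), and Pml also without the library labelled sufficient replicate 3 (-0.296). Ube2l6, which encodes the ISG15-conjugating enzyme, rose to 18.4, 19.7 and 22.1 CPM with low Trim28, against 12.6, 10.9 and 15.0 CPM with high Trim28 (0.66 ± 0.13), also in all 15 alternatives. Tnfsf10, which encodes the death ligand TRAIL, had 107, 114 and 100 CPM with low Trim28, against 91.7, 85.8 and 92.6 CPM with high Trim28 (0.26 ± 0.06), and lost its call without deficient replicate 1 (0.260) or 2 (0.217) or sufficient replicate 1 (0.233). Ifit3b lost its call in 5 of 15 alternatives, at -0.892 to -0.977 without single libraries and -1.035 with DESeq2.

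Among 16 tested genes of a list of type II induced genes other than GTPases, 4 rose and 0 fell with low Trim28 (edgeR, DESeq2 and limma-voom alike). Over all tested genes edgeR called 4.61% higher and 3.61% lower. At an unadjusted edgeR p under 0.05 there were 5 higher and 1 lower, where 22.3% of all genes stood in either direction. The count of 0 lower depends on how genes were placed. The chemokine gene Cxcl10 was put in the list of other type I induced genes, while Cxcl9 and Cxcl11 are in this one and were too low to test. Cxcl10 fell with low Trim28 (-0.86 ± 0.24, SE, edgeR adjusted p = 0.0402) and was named after its values were seen. The 4 called genes of the type II list include Socs1, which is also counted among the inhibitors of signalling above. The 4 were Socs1, the peptide transporter gene Tap2 (418, 437 and 442 CPM with low Trim28, against 359, 377 and 368 CPM with high Trim28, 0.24 ± 0.05), the adhesion gene Icam1 (84.4, 84.7 and 85.2 CPM with low Trim28, against 63.5, 74.9 and 71.4 CPM with high Trim28, 0.29 ± 0.07) and the immunoproteasome gene Psmb10 (142, 132 and 146 CPM with low Trim28, against 113, 125 and 121 CPM with high Trim28, 0.24 ± 0.06). Tap2 lost its call without deficient replicate 2 (0.239) or the library labelled sufficient replicate 3 (0.227). Icam1 lost it without either of these (0.294 and 0.286) or deficient replicate 1 (0.290), and Psmb10 with upper-quartile factors (0.210) and without deficient replicate 1 (0.225) or sufficient replicates 2 (0.244) or 3 (0.204). Of 9 tested genes of further interferon-inducible GTPases, edgeR called Gbp11 alone, DESeq2 called Gvin1 alone and limma-voom both, all higher with low Trim28. Gvin1 was named after its values were seen. Gbp11 stood at 2.88, 2.71 and 3.40 CPM with low Trim28, against 1.91, 1.19 and 1.57 CPM with high Trim28 (0.94 ± 0.26). Gbp11 lost its call in 7 of 15 alternatives, among them DESeq2 (0.950), the label as a covariate (0.941) and the removal of any library other than the library labelled deficient replicate 3 (0.792 to 1.015).

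**Figure D5:**
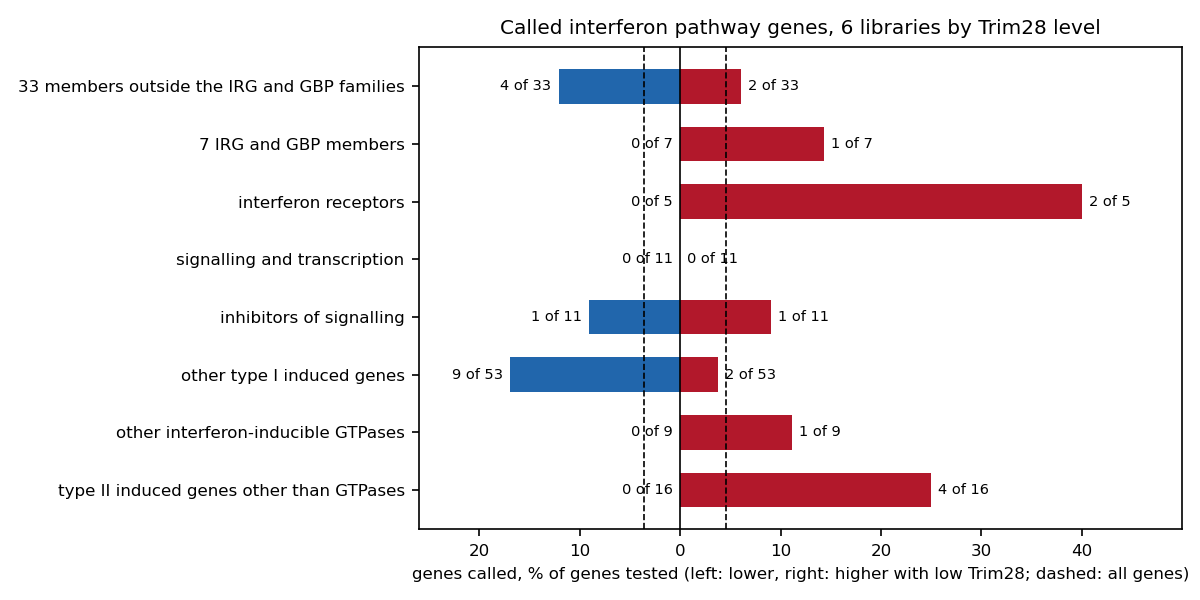
Share of tested genes called by Trim28 level in each list (x axis, %), higher with low Trim28 to the right and lower to the left, with counts beside the bars. Dashed lines give the shares over all tested genes, 4.61% higher and 3.61% lower. The 53 other type I induced genes, with Cxcl10 placed among them, hold 9 lower and 2 higher calls. The 16 type II induced genes other than GTPases hold 0 lower and 4 higher.

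The authors' deposited table of their own comparison gives log2 fold changes that are positive where sufficient cells were higher, a direction read here from Trim28, and no source used here names the libraries that entered it. At an adjusted p under 0.05 the authors' deposited table holds 9 of the 40 members, where 6.87% of all genes with an adjusted p stood. Of the 9, the authors' deposited table has 5 higher in sufficient cells (3.02% of all genes) and 4 lower (3.85%). Here DESeq2 on the 6 libraries as labelled called 0 members and 0.0322% of all genes. By Trim28 level DESeq2 called 6 members and 4.25% of all genes. These were Usp18, Lgals9, Ifi47, Ifit1, Ifit3 and Oasl1, each also among the 9 of the authors' deposited table. Whether the authors' groups were these labelled groups is not known and was not tested. The largest in the authors' deposited table was Usp18, at -0.78 (adjusted p = 4.77e-19), thus lower in sufficient cells. The authors' deposited table has Lgals9 (-0.28), Ifi47 (-0.20) and Oas1a (-0.39) on the same side as Usp18. It has Ifit3 (0.57), Ifit1 (0.42), Oasl1 (0.43), Oas2 (0.34) and Mx2 (0.37) on the other, as values of the authors' deposited table.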

How the data were processed

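Per the labels' protocols, CD4 T cells were isolated from spleen, YFP-positive Treg were sorted, and total RNA was made into libraries with a TruSeq RNA kit. Per the submitters' processing notes, the tools were HTSeq 0.7.2, TopHat2 2.1.1 and DESeq2 on mm10, with no role given. The authors deposited raw counts per Ensembl gene, and a table of their own comparison with, per the file headers, the log2 fold change, mean level (a normalised signal over libraries), standard error, test score, p-values and adjusted p-values. Groups and replicate numbers came from the sample titles.

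Counts were tested with edgeR 4.0.16 (quasi-likelihood, robust, TMM factors, filterByExpr, Benjamini-Hochberg over all tested genes at 0.05) in R 4.3.3. CPM used library totals without TMM factors. All 40 members passed the filter in each fit. SEs were derived from the fold change and F value. Alternatives were DESeq2 1.42.0, limma-voom (limma 3.58.1), other factors and filters, a non-robust fit, covariates and leaving out libraries. The fits were tested on simulated data. Chi-square per degree of freedom between libraries ran from 2.52 to 14.3, so no pair was within sampling noise. Rows without a symbol held 0.603% of counts. Positions are from GENCODE M21 (mm10) and promoters from RefSeq.

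The members, lists and tests were chosen with earlier results of these data known. Named are all members, and up to 6 called genes per further list, by smallest adjusted p by Trim28 level.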

Additional observations from a re-analysis of the deposited data

How the results depend on the processing

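As labelled, leaving out 1 library gave 0 to 4 called members, the 4 without the library labelled sufficient replicate 3 (6.54% of all genes called), and leaving out both libraries that Trim28 contradicts gave 13 (17.4%). In the 4 libraries the count was 8 with DESeq2, where 5.22% of all genes were called against 17.4% with edgeR, and 8 to 13 without single libraries (13.1% to 13.7% of all genes), with 8 without deficient replicate 2. By Trim28 level, where the edgeR count was 7 (8.23% of all genes), it was 14 with no filter on low counts (8.99%), and 1 to 15 without single libraries: 1 without deficient replicate 2 (4.57%), 15 without the library labelled deficient replicate 3 (22.2%), 3 without sufficient replicate 1 (5.26%), and 4 without sufficient replicate 2 (4.91%) or the library labelled sufficient replicate 3 (4.83%). Without single libraries the share of all genes called thus moved too. Leaving out a library also leaves fewer libraries to test, and the cause of these shifts was otherwise not tested.

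With the replicate number as a block, 0 members were called as labelled (0 of all 12158 genes), 13 in the 4 libraries (19.4% of all genes) and 11 by Trim28 level (4 higher, 7 lower, 9.19% of all genes), the last an alternative chosen after seeing the data, as was Trim28 level as a covariate beside the label (0 called). Over all genes the numbers were not taken to pair the libraries, although single genes such as Apobec3 followed them: same-numbered libraries deviated from their label means with correlations of -0.365, -0.292 and -0.613, and from the Trim28 set means with -0.0419, 0.0239 and 0.0204.

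Log2 fold changes of named genes kept direction and side of the threshold in 101 of 112 values as labelled (7 genes), 252 of 288 in the 4 libraries (24 genes) and 496 of 584 by Trim28 level (39 genes). Calls were lost in 0, 25 and 64 of these values and gained in 11, 7 and 22, in the same order. Direction turned for Igtp in the 4 libraries (-0.002 with upper-quartile factors, -0.033 to 0.089 without single libraries) and for Irgm1 (-0.09 to 0.009 without single libraries in the 4 libraries; -0.002 with upper-quartile factors and -0.019 to 0.072 without single libraries by Trim28 level). The cause was not tested. Depth limits genes such as Ifi44 and Ifng, with at most 29 counts per library.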

Other observations

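Apobec3, which encodes a cytidine deaminase that restricts retroviruses and belongs to the list of other type I induced genes, stood at like levels in libraries of the same replicate number. It had 204, 331 and 50.4 CPM in the libraries labelled deficient replicates 1, 2 and 3, against 232, 384 and 50.9 CPM in those labelled sufficient replicates 1, 2 and 3. Apobec3 was named after its values were seen. Ifi208, a gene of the same family as Ifi213, had 66.2, 20.9 and 107 CPM in the low-Trim28 libraries, against 125, 134 and 138 CPM in the high-Trim28 libraries, without overlap, and its log2 fold change of -1.02 ± 0.59 was not called (SE, edgeR adjusted p = 0.407). Ifi208 was also named after its values were seen.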
